A study of Rattus norvegicus with 29 samples.

Results

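The wide open chromatin regions (OCRs) were the rows of the deposited count table whose end minus start was 2000 bp or more. There were 424 of them among 98237 OCRs, and the remaining 97813 OCRs served as the comparison. Accessibility had been measured with ATAC-seq, where a transposase inserts sequencing adapters into exposed DNA, in frozen brain tissue of adult male Sprague-Dawley rats. Rats in the METH groups received 4 intraperitoneal injections of methamphetamine at 10 mg/kg, 2 h apart, and rats in the saline groups received saline at 1 mL/kg on the same schedule. Tissue was taken about a day after the last injection from the nucleus accumbens (NAc), the dentate gyrus (DG), Ammon's horn of the hippocampus (CA) and the subventricular zone (SVZ). The libraries came from 8 rats, with 4 per treatment in NAc, in DG and in CA. For SVZ there were 3 with saline and 2 with METH. The experiment covers binge exposure in males at 1 time point, and several libraries came from the same rat.

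Nucleosomes cover most of the genome, and an OCR marks DNA that they leave exposed. In mammalian tissue, long exposed stretches are known from promoters rich in CG dinucleotides and from runs of neighbouring enhancers, many of which are open in most cell types. Short OCRs far from promoters are more often open in particular cell types. Where the 424 regions lie relative to rat genes was not analysed here, since no annotation of the build used for them (rn6) was at hand.

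Each library held between 7.55 and 19.4 M reads in OCRs, of which 180819 to 434966 fell in wide OCRs. A wide OCR had a median of 461 reads per library and never fewer than 21, and the median of the other OCRs was 53.

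The width of an OCR came from merging the peaks of all libraries, so a wide OCR need not be 1 wide peak. The 424 regions were 2000 to 3796 bp wide with a median of 2166 bp, against a median of 661 bp for the other OCRs. Only 58 reached 2500 bp and 9 reached 3000 bp. In 146 of 424 (34.4%) some library had a single peak of 2000 bp or more inside the region, and in the other 278 the full width was reached only by joining peaks. The widest single peak in any library had a median of 1842.5 bp over the 424 regions and ranged from 790 to 3174 bp. Taking for each region the median over libraries instead, the widest peak was shorter, with a median of 890.5 bp over the regions, and it was under 1000 bp in 260 of them. Libraries with a peak held 1.74 peaks per region on average and at most 5, and 263 regions had several peaks in at least 15 libraries.

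Wide OCRs were occupied in nearly every library. A peak was called in all 29 libraries in 342 of 424 (80.7%), against 20454 of 97813 (20.9%) of the other OCRs, and no wide OCR had a peak in fewer than 15 libraries. Since every library's peaks entered the merge, width and the number of libraries with a peak are not independent. Across libraries, between 92.7 and 99.8% of wide OCRs had a peak, compared with 44.5 to 79.8% of other OCRs. Peak strength differed less. The fold enrichment over local background of an OCR's strongest peak had a median of 6.85 over wide OCRs in the middle library and 6.25 over other OCRs. Wide OCRs held more peaks each, which raises such a maximum.

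The level per length was also higher. Wide OCRs made up 0.432% of OCRs and 1.34% of their summed length, and took 2.08 to 2.53% of OCR counts per library. Per kb, counts were 1.57 to 1.91 times as dense in wide OCRs as in the rest, with 1.75 in the middle library. The median wide OCR had 16.9 counts per M per kb (CPM per kb, library sizes scaled by the upper quartile) and the median of the other OCRs was 7.05. In abundance, which is not corrected for length, 329 of 424 fell in the top decile of mean CPM and 90 in the ninth. Within the top decile the wide OCRs were less dense, with a median of 21.3 CPM per kb against 38.0 in narrower ones.

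The classes of width formed a gradient. A peak in all 29 libraries was found in 2.66% of OCRs under 500 bp, 17.4% of those from 500 to under 1000 bp, 59.5% of those from 1000 to under 2000 bp and 80.7% of those of 2000 bp or more. The median level went from 7.19 CPM per kb in the shortest class to 6.28, 13.5 and 16.9 in the wider ones. The narrowest members, at chr3:152700851-152702850 (2000 bp) and chr13:75092179-75094179 (2001 bp), had mean CPM of 18.0 and 10.9. The 2 widest OCRs left out, at chr9:53626095-53628093 and chr4:29975759-29977756, had 37.9 and 33.9, so these neighbours of the limit were the more open ones. In all, 143 OCRs had widths from 2000 to under 2100 bp and 167 from 1900 to under 2000 bp.

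**Figure D1:**
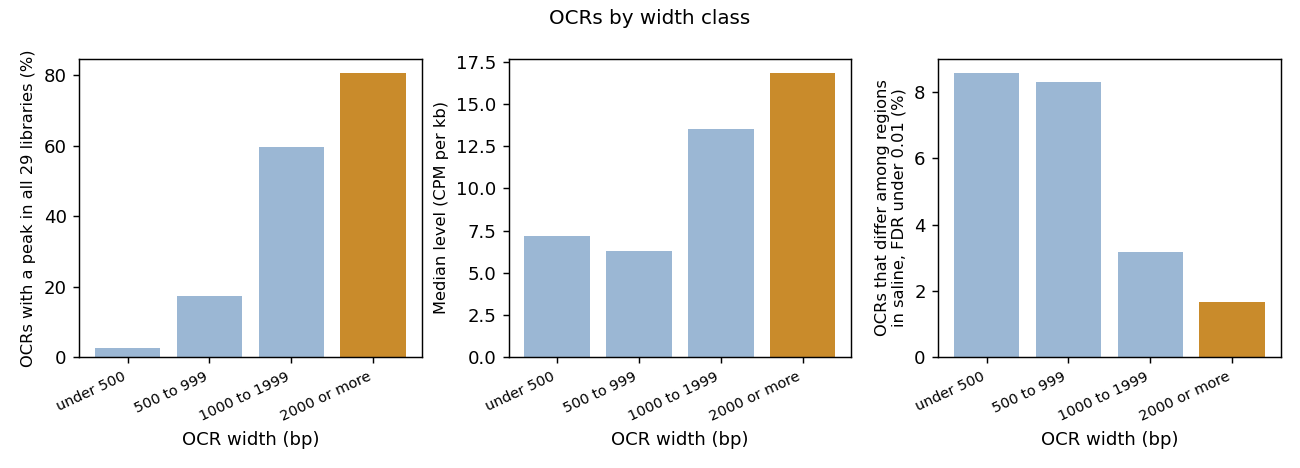
Bar charts over 4 classes of OCR width in bp: the percentage of OCRs with a peak in all 29 libraries, the median level in CPM per kb, and the percentage that differed among the 4 regions in saline at an FDR under 0.01. The first reaches 80.7% and the second 16.9 CPM per kb in OCRs of 2000 bp or more (orange), while the third falls from 8.59% in the shortest class to 1.65% there.

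One region stood far above the rest. The OCR at chr1:11909095-11912509 (3415 bp) had a mean of 1757 CPM, or 514.6 CPM per kb, and took 3.22 to 10.7% of all counts in wide OCRs. In saline its CPM was 988, 982, 2150 and 1775 in NAc, 1448, 2521 and 2153 in SVZ, 772, 1176, 1890 and 1543 in DG, and 1608, 1885, 1721 and 1655 in CA. The NAc, SVZ and DG libraries lay far apart and the CA libraries close together, and the ranges of all 4 regions overlapped. Its share of wide counts had a median of 6.46% in the 13 libraries of batch 1 and 8.60% in the 16 of batch 2. The batches were read from a tag in the peak names whose 2 forms differ only in the case of a letter, and sample titles name no batch. Each rat fell in 1 batch, so the batches also differ in their rats. Next came chr4:146546697-146548712 with 227 CPM per kb and chr14:46654946-46657579 with 115 CPM per kb. At the other end, chr7:64757504-64759536 had a mean of 6.68 CPM, chr11:82395095-82397129 had 8.30 and chr16:72604536-72606737 had 9.68, with peaks in 15, 15 and 20 libraries.

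The most open OCR was also among the 8 widest, and the others of these 8 ranged from 7.45 to 32.6 CPM per kb. The widest, chr9:8772975-8776770 (3796 bp), had 7.45 CPM per kb, and its widest peak in any library was 1520 bp. The regions at chr9:70039363-70042956 (3594 bp), chr5:58923861-58927052 (3192 bp) and chr12:50458731-50461749 (3019 bp) had 10.7, 9.95 and 9.44 CPM per kb, and none of them held a peak of 2000 bp in any library. Those at chr7:126552321-126555535 (3215 bp), chr2:148606736-148609778 (3043 bp) and chr9:76176968-76180011 (3044 bp) had 25.3, 32.6 and 17.3 CPM per kb, with widest peaks of 2340, 2389 and 2166 bp.

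Wide OCRs lay on every chromosome of the table except Y, which held 9 OCRs. Their share of OCRs ranged on the others from 0.270% on chromosome 10 to 0.792% on chromosome X, with 57 of 10459 on chromosome 1. The nearest other OCR was at a median distance of 5500 bp, and 4775 bp for the rest. The densest run, 7 wide OCRs among 127 OCRs, spanned chr1:54041864-56038238.

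Of the wide OCRs, 7 carry the name of a single gene in the study's list of human counterparts. They were picked for this clarity after their values had been seen. The study drew that list from OCRs whose human counterparts hold variants tied to neurological traits, so these genes are not a sample of all wide OCRs. Where each lies in the rat gene was not analysed here. All 7 had a peak in at least 28 libraries. The OCR with NCAM1, a neural cell adhesion molecule, was at chr8:54132450-54135024 (2575 bp), and its saline CPM was 66.1, 78.3, 56.3 and 52.9 in NAc, 65.0, 79.3 and 62.2 in SVZ, 65.6, 88.7, 56.5 and 61.9 in DG, and 72.8, 75.5, 55.8 and 55.0 in CA. These ranges overlapped throughout. The OCR with FOXP1, a forkhead transcription factor, at chr4:131957391-131960175 (2785 bp), ranged in saline from 46.6 to 71.4 CPM in NAc, 47.7 to 69.1 in SVZ, 50.1 to 81.5 in DG and 39.4 to 73.5 in CA. The one with ERBB4, a receptor tyrosine kinase for neuregulins, was among the 8 widest (chr9:76176968-76180011) and held 3.28 peaks per library. Its CPM was 67.4, 83.8, 26.2 and 19.4 in CA saline, so that CA alone spanned the saline libraries of the other regions. GAS1, a membrane-anchored modulator of Hedgehog signalling, had an OCR at chr17:4845614-4847879 with 31.6 CPM per kb. LRP4, a receptor for agrin, had one at chr3:80361939-80364080 with 14.4 CPM per kb. PRICKLE4, of a family known from planar cell polarity, had one at chr9:15311888-15313894 with 30.7, and PHLDB1 one at chr8:49043402-49045674 with 42.0 CPM per kb. None of the 7 differed among regions in saline, with adjusted p from 0.900 (PHLDB1) to 0.995 (ERBB4) by edgeR's quasi-likelihood test.

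The share of counts in wide OCRs was compared among regions in the 15 saline libraries. It was 2.31, 2.36, 2.26 and 2.24% in NAc, 2.32, 2.37, 2.39 and 2.31% in DG, 2.24, 2.30, 2.30 and 2.24% in CA, and 2.51, 2.53 and 2.39% in SVZ. SVZ was highest and overlapped no other region, if barely so for DG, and DG lay just above CA. In bulk tissue, fewer cells of a type and less accessible DNA per cell cannot be told apart. Counting error was small beside this, since the 95% Wilson interval of a share was at most 0.0218 percentage points wide, for counting error only. The mean was 2.48 ± 0.07% (SD, n = 3) in SVZ, 2.35 ± 0.04% (n = 4) in DG, 2.29 ± 0.05% (n = 4) in NAc and 2.27 ± 0.04% (n = 4) in CA. The difference of DG minus CA was 0.0757 percentage points (exact two-sided permutation p = 0.0286, the smallest possible, 0.0857 after Benjamini-Hochberg adjustment over 6 pairs). The 3 pairs with SVZ had an exact permutation p of 0.0571 each, the smallest possible there, and the same adjusted p. No adjusted p was under 0.05, and over these 6 pairs none could be, whatever the values. The same rats gave several of these libraries. Within rats, DG was above CA in 4 of 4, by 0.0643 to 0.0947 points, and above NAc in 4 of 4, by 0.0020 to 0.131 points, and SVZ was above each other region in 3 of 3. An exact sign-flip permutation within rats, chosen after seeing the data, gave these 5 pairs its smallest possible p, 0.125 with 4 rats and 0.25 with 3, so the paired test could not pass. NAc was above CA in 3 of 4 rats (exact permutation p = 0.375). In METH libraries SVZ was not higher: the share was 2.08 and 2.44% there, against means of 2.30% in CA, 2.30% in DG and 2.39% in NAc.

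**Figure D2:**
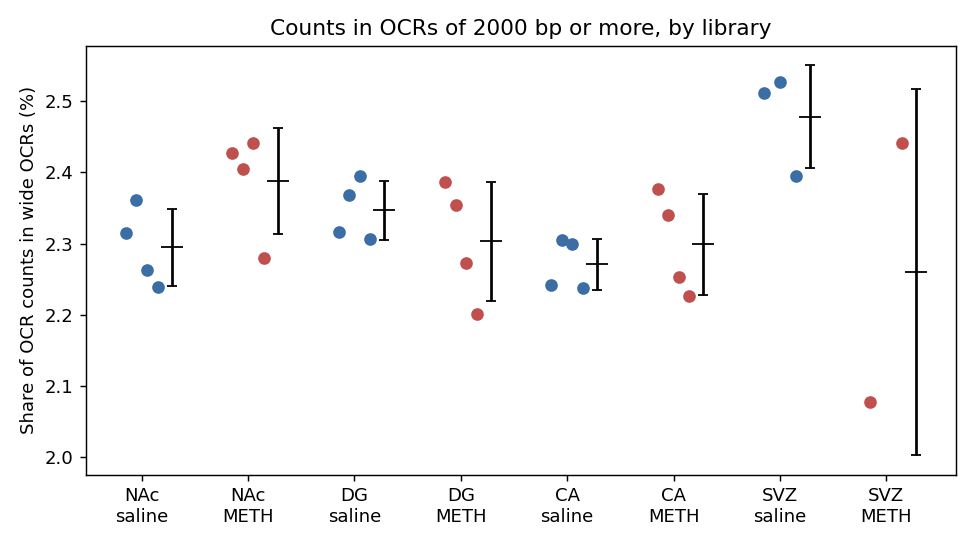
Share of a library's OCR counts (%, axis from 2.0) that fell in wide OCRs. Points are libraries, blue for saline and red for METH, in the 4 regions, and the black mark beside each group is its mean with 1 SD. SVZ saline libraries lie at 2.39 to 2.53%, and the 2 SVZ METH libraries are 2.08 and 2.44%.

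Few wide OCRs distinguished the regions. A test of any difference among the 4 regions in saline (edgeR, FDR under 0.01) called 7 of 424 wide OCRs (1.65%), with 7.51% of all OCRs called, and 11 wide OCRs with the animal as a block. The count fell to 3 without NAc saline replicate 1, NAc saline replicate 4 or DG saline replicate 3, and to 4 without CA saline replicate 1, NAc saline replicate 2 or 3, or SVZ saline replicate 1. Compared with the mean of the other 3 regions, no wide OCR was higher in any region (log2 fold change above 1, FDR under 0.01), while 4.66% of all OCRs were higher for NAc, 0.399% for SVZ, 0.155% for DG and 0.0814% for CA. At an unadjusted p under 0.05, 14 wide OCRs (3.30%) were higher in NAc, 37 (8.73%) in SVZ, 16 (3.77%) in DG and 5 (1.18%) in CA, with 13%, 9.74%, 9.87% and 8.51% of all OCRs. The SVZ share was thus near that of all OCRs and the others were below it. DESeq2 called 2 higher in CA (0.472%, with 1.35% of all OCRs) and none in NAc, SVZ or DG, where it called 6.2%, 1.53% and 1.31% of all OCRs. The edgeR test called 1 higher in CA without SVZ saline replicate 1 or CA saline replicate 2. Just 1 wide OCR was lower in NAc (2 without CA saline replicate 2), where 0.263% of all OCRs were. None was lower in SVZ, with 0.00611% of all OCRs, in DG, with 0.188%, or in CA, with 0.708%, and CA had 1 without DG saline replicate 2 or CA saline replicate 4. On the lower side 19 wide OCRs (4.48%) had an unadjusted p under 0.05 in NAc, 5 (1.18%) in SVZ, 6 (1.42%) in DG and 42 (9.91%) in CA, with 9.24%, 5.65%, 7.95% and 11.3% of all OCRs, so none of these shares exceeded that of all OCRs. DESeq2 called 2 lower in NAc (0.472%, with 1.68% of all OCRs) and none in SVZ, DG or CA, where it called 0.565%, 3% and 3.37% of all OCRs.

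The differences themselves were small. In NAc against the other regions the median absolute log2 fold change was 0.13 in wide OCRs and 0.33 in all OCRs. The standard error was also smaller in wide OCRs (median 0.19 against 0.32). A smaller error by itself lowers absolute fold changes, so the 2 medians do not compare true differences alone. Level also went with the differences. Among OCRs in the top decile of mean CPM, 4 of 329 wide OCRs (1.22%) differed among regions and so did 14 of 9495 narrower ones (0.147%). In the ninth decile 150 of 9734 narrower OCRs (1.54%) did. Set beside OCRs of the top decile, the share of wide OCRs that differed was therefore not the smaller one.

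NAc and SVZ against DG and CA gave 5 calls. Here 1 wide OCR was higher in NAc and SVZ and 4 were lower (log2 fold change beyond 1, FDR under 0.01), with 8.40% and 5.30% of all OCRs. The lower count fell to 2 without CA saline replicate 3, DG saline replicate 1, NAc saline replicate 1 or 4, or SVZ saline replicate 1 or 3.

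The one that was higher lay at chr15:6585678-6587822 (2145 bp). Its CPM was 23.8, 21.0, 20.1 and 27.9 in NAc and 17.3, 20.1 and 21.2 in SVZ, but 12.2, 8.9, 12.5 and 11.5 in DG and 6.9, 5.8, 10.1 and 11.6 in CA. All NAc and SVZ libraries lay above all DG and CA libraries. The log2 fold change was 1.11 ± 0.18 (SE; edgeR adjusted p = 0.000169).

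The largest fall was at chr16:72604536-72606737 (2202 bp), which had 3.7, 3.4, 3.1 and 2.9 CPM in NAc and 10.8, 4.8 and 4.1 in SVZ, against 13.3, 10.0, 14.3 and 14.1 in DG and 12.3, 7.7, 15.9 and 13.6 in CA. NAc lay below every library of the other regions, and SVZ replicate 1 lay within the hippocampal range. Its log2 fold change was -1.45 ± 0.23 for NAc and SVZ against DG and CA (edgeR adjusted p = 0.000198) and -1.64 ± 0.28 for NAc alone (edgeR adjusted p = 0.000962).

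At chr17:10353624-10355775 (2152 bp) CPM was 10.6, 16.0, 18.9 and 11.7 in NAc and 12.6, 18.2 and 13.8 in SVZ, against 39.7, 27.3, 46.4 and 45.7 in DG and 23.3, 16.5, 57.5 and 56.4 in CA. CA split by batch, with both batch 1 libraries low and both batch 2 libraries high. The same split was seen at chr6:79253735-79256553 (2819 bp), where CA had 16.7 and 14.8 in batch 1 and 35.7 and 45.2 in batch 2 while DG had 29.1 to 47.3, NAc 10.9 to 21.4 and SVZ 10.6 to 19.1. The fourth, chr4:108237013-108239049 (2037 bp), had 2.6 to 4.6 CPM in NAc, 5.4 to 7.8 in SVZ, 5.6 to 21.5 in DG and 4.3 to 30.7 in CA. Batch and the set of rats cannot be told apart here, and their part in these 3 was not tested.

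A further 4 wide OCRs passed the test of any difference without reaching a log2 fold change of 1. At chr5:137188174-137190489 (2316 bp) NAc had 44.7, 48.3, 41.7 and 43.3 CPM and SVZ 45.3, 48.3 and 40.2, and every DG and CA library lay between 21.2 and 30.5. The log2 fold change of NAc and SVZ against DG and CA was 0.74 ± 0.12 (edgeR adjusted p = 0.000213). The OCRs at chr8:89129679-89132534, chr17:55423973-55426284 and chr1:15300008-15302291 had log2 fold changes of 0.78, 0.79 and 0.83 in the same contrast. At the first of these NAc had 47.0 to 59.4 CPM and all DG and CA libraries 18.8 to 34.6, and SVZ, at 31.3, 37.2 and 51.9, reached into both ranges.

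**Figure D3:**
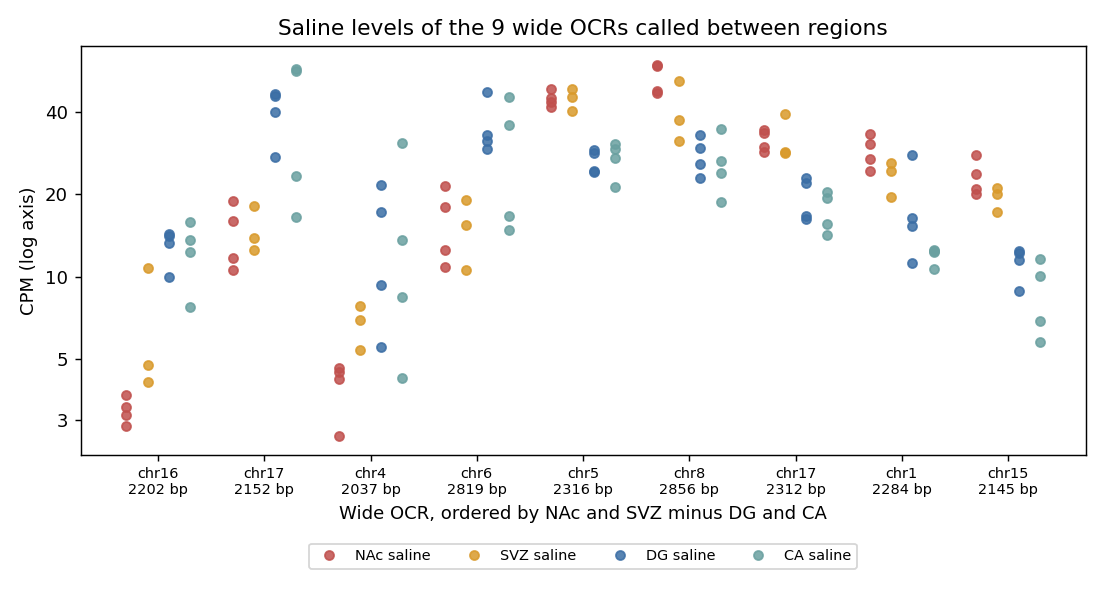
CPM (log axis) in each saline library of the 9 wide OCRs called between regions, NAc red, SVZ orange, DG blue and CA teal. The 4 OCRs on the left are lower and the 5 on the right higher in NAc and SVZ, and the CA libraries spread widely in the OCRs on chromosomes 17 (2152 bp), 4 and 6.

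METH was then compared with saline within each region. The share of counts in wide OCRs was 2.43, 2.40, 2.44 and 2.28% in NAc METH, and the mean of 2.39 ± 0.07% (SD, n = 4) was 0.0932 percentage points above saline (exact permutation p = 0.0857, adjusted over 4 regions 0.343). The difference had the same sign in both batches, at 0.0776 and 0.109 points. In DG METH it was 2.39, 2.35, 2.27 and 2.20%, a difference of -0.0432 points (exact p = 0.400, adjusted 0.514), with 0.0273 in batch 1 and -0.114 in batch 2. It was -0.0090 without METH replicate 4 and -0.0709 without METH replicate 1. In CA METH it was 2.38, 2.34, 2.25 and 2.23%, a difference of 0.0283 points (exact p = 0.514), with 0.0854 in batch 1 and -0.0288 in batch 2. It was 0.0024 without METH replicate 1 and 0.0526 without METH replicate 4. In SVZ the difference was -0.218 points (exact p = 0.400, adjusted 0.514, where the exact p of 3 against 2 libraries cannot go below 0.2). It was -0.201 points within batch 2, the only batch with both treatments. It was -0.0367 points without METH replicate 1 and -0.400 without METH replicate 2. No region passed, and no pair of regions differed in the METH effect after adjustment: the largest gap, NAc minus SVZ, was 0.311 points (exact permutation p = 0.0229, adjusted over 6 pairs 0.137).

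The region at chr1:11909095-11912509 weighed on these values. Without it, the differences were 0.0591 points in NAc, -0.163 in SVZ, -0.0932 in DG and -0.0037 in CA, so that in CA the sign changed.

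No measure of peak structure in wide OCRs differed after METH beyond the spread of libraries. The percentage with a peak was 98.2 ± 1.1 (SD, n = 4) in NAc METH and 97.5 ± 2.0 in saline, 99.1 ± 0.9 and 98.6 ± 1.3 in CA, and 94.1 ± 1.0 (n = 2) and 96.1 ± 3.2 (n = 3) in SVZ. In DG saline it ranged from 98.3 to 99.8. DG METH replicates 1 and 4 were low at 95.8 and 93.4%, and the other DG METH libraries had 98.6 and 99.3%, inside the saline range. The exact permutation p was 0.257 in DG and 0.6 or more elsewhere, and 0.629 in all 4 after adjustment. The median widest peak was 916 ± 52 bp in NAc METH and 936 ± 58 in saline, 930 ± 120 and 956 ± 107 in DG, 1090 ± 161 and 1060 ± 162 in CA, and 721 ± 42 and 854 ± 154 bp in SVZ (exact permutation p from 0.400 to 0.886). Peaks per wide OCR ranged from 1.5 to 1.88 over all libraries, and METH minus saline lay between -0.111 (DG) and 0.0719 (CA) (exact permutation p from 0.229 to 1).

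No wide OCR was a differentially accessible region, defined by a fold change above 1.5 and an FDR under 0.001 in edgeR. Among all OCRs the share called was 0% in each of the 4 regions, and DESeq2 also called no wide OCR. The smallest adjusted p of a wide OCR was 0.493 in DG and rounded to 1 in NAc, CA and SVZ. The study itself reported many differentially accessible regions in all 4 brain regions at these thresholds. It had first removed unwanted variation (RUVr), a step that the main fit here left out. With 5 factors of unwanted variation (RUVr, estimated from the residuals of a first fit) in the edgeR model, 4 wide OCRs were called higher and 21 lower in DG, with 2.26% and 2.48% of all OCRs called. For SVZ none was called higher and 11 lower, with 0.00204% and 0.148% of all OCRs. In NAc no wide OCR was called, and among all OCRs none was higher and 14 were lower. In CA no OCR of any width was called. Whether the RUVr step accounts for the difference from the study was not tested.

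At an unadjusted p under 0.05 the counts of wide OCRs were as follows. In NAc 3 were higher and none lower, with 1.03% and 1.42% of all OCRs, or 1 higher without METH replicate 1 or saline replicate 1 and 5 without METH replicate 4. They were 1 higher and 2 lower without saline replicate 3, 1 and 1 without saline replicate 4, and 3 and 1 without METH replicate 2. In CA none was higher and 1 lower, with 0.353% and 0.467% of all OCRs. The CA count reached 20, of which 14 were higher, without saline replicate 4, 8 without saline replicate 3, 3 without METH replicate 2, and 2 without METH replicate 1 or 3. In DG 4 were higher (0.943%, with 3.57% of all OCRs) and 31 lower (7.31%, with 6.28%). In SVZ 13 were higher (3.07%, with 1.27% of all OCRs) and 48 lower (11.3%, with 2.20%). In SVZ both shares were above those of all OCRs, and level went with the lower side. Among OCRs in the top decile of mean CPM, 3.04% of the 329 wide ones were higher and 14.3% lower, and 0.390% and 11.5% of the 9495 narrower ones. The SVZ counts, however, were 28 and 25 without saline replicate 1, 6 and 33 without saline replicate 2, 1 and 57 without saline replicate 3, 6 and 7 without METH replicate 1, and 7 and 77 without METH replicate 2.

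The median log2 fold change of wide OCRs in SVZ was -0.24 (all OCRs -0.01), and it was negative with TMM, total counts and DESeq2 and with each library left out, the last from -0.33 to -0.16. With a mean CPM of 10 or more required, it was -0.03, and 0.08 over the 20651 OCRs kept. This minimum left 420 wide OCRs, but the upper-quartile scaling was then computed from the OCRs kept. Without this minimum 334 of 424 (78.8%) were below saline, and 50.5% of all OCRs. Narrower OCRs in the top decile of mean CPM were also mostly below saline (78.2%, median -0.19), as were wide OCRs of that decile (85.4%, median -0.28). In OCRs from 1000 to under 2000 bp the median was -0.12. In NAc the median was 0.06 (all OCRs -0.01), but -0.01 without METH replicate 1 and -0.0018 with the same minimum on CPM, and 128 wide OCRs were below saline. The DG median was -0.05 (all OCRs -0.15), with 234 below saline. It was 0.0042 without METH replicate 4. It turned to 0.01 with TMM (all OCRs -0.09) and 0.10 with DESeq2 (all OCRs -0.01), and it lay above the median of all OCRs under all 4 scalings. With a mean CPM of 10 or more required, and the scaling likewise renewed, it was -0.28, below the -0.09 of the OCRs kept. It also lay below the median of all OCRs without METH replicate 1 (-0.11, all OCRs -0.08). In the top decile of mean CPM, the DG median was 0.04 in wide OCRs and 0.22 in narrower ones. The CA median was 0.02, the same as for all OCRs, -0.06 with DESeq2 and -0.02 without METH replicate 2, with 191 below saline. The sizes stayed modest. A fold change of 1.5 was exceeded in 75 wide OCRs (17.7%) in SVZ, 34 (8.02%) in DG, 4 (0.943%) in NAc and 2 (0.472%) in CA, against 19.3%, 30.9%, 13.02% and 7.18% of all OCRs. The SVZ share was near that of all OCRs and the others were lower. The standard error was smaller in wide OCRs, with a median of 0.24 against 0.39 in NAc and 0.31 against 0.51 in SVZ. OCRs with a larger error pass a fold limit more often without a true difference, so these shares do not compare effects alone.

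These values went with the level of the OCR. Split into 4 groups of 106 by CPM per kb, the median log2 fold change in DG was -0.35 in the lowest group, -0.20 and 0.03 in the middle ones and 0.22 in the highest. In the lowest group 92 of 106 were below saline, in the highest 18. In CA the order was the opposite, with 0.17, 0.11, 0.0048 and -0.08, and in SVZ the medians were -0.07, -0.26, -0.27 and -0.33. In NAc they were 0.07, 0.09, 0.07 and 0.05. The CPM of all libraries set the groups, so they are a description.

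The libraries differed in the same way. The share of wide counts held by the highest group was 62.0, 57.7, 52.9 and 61.9% in DG METH and 51.3, 56.0, 53.4 and 53.4% in DG saline (mean difference 5.10 points, exact permutation p = 0.114, adjusted over 4 regions 0.457). METH replicates 1 and 4 were high and METH replicate 3 was within the saline range. In CA it was 54.3, 58.7, 53.6 and 52.2% in METH and 58.5, 60.6, 52.3 and 51.5% in saline, so that both saline libraries of batch 1 lay above the other 2.

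**Figure D4:**
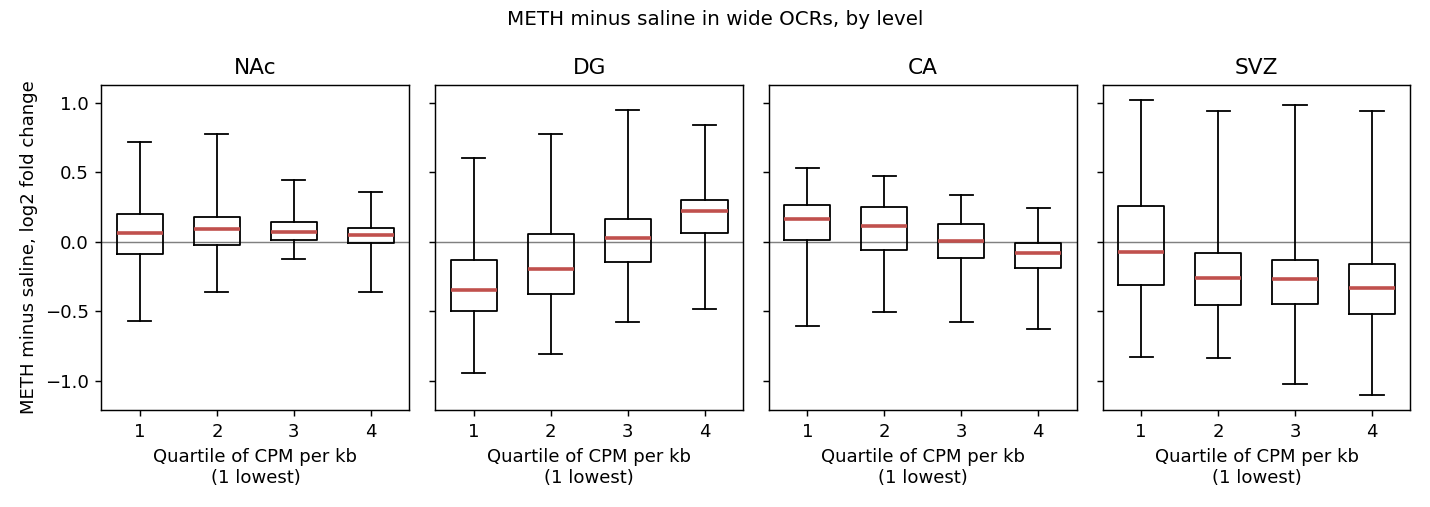
METH minus saline log2 fold change of the 424 wide OCRs in each region, grouped into quartiles of mean CPM per kb from lowest (1) to highest (4). Boxes span the quartiles, red lines are medians and whiskers reach the extremes. Medians in DG run from -0.35 to 0.22 and in CA from 0.17 to -0.08.

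In DG the balance of higher and lower OCRs at an unadjusted p under 0.05 rested on the scaling and on single libraries. The counts of 4 higher and 31 lower became 17 and 16 with TMM normalization, 40 and 11 with DESeq2, and 2 and 55 with normalization on total counts. All OCRs moved in the same way, from 3.57% higher and 6.28% lower to 6.85% and 4.92% with TMM, 11.7% and 4.39% with DESeq2, and 2.49% and 7.59% on total counts. The 40 higher with DESeq2 (9.43%) were below the share of all OCRs, and the 55 lower on total counts (13%) above it. With the upper quartile, the wide counts were 0 and 6 without METH replicate 1, 2 and 58 without METH replicate 2, 49 and 95 without METH replicate 3, 0 and 4 without METH replicate 4, 1 and 15 without saline replicate 1, 29 and 38 without saline replicate 2, and 1 and 20 without saline replicate 3. In 25 of the 31 lower OCRs, METH replicates 1 and 4 were the lowest pair of the 8 DG libraries. The 31 were chosen by these same libraries, so METH lying low follows in part from the choice.

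METH and saline CPM did not overlap in DG at 8 wide OCRs, all lower (1.89%, with 2.54% of all OCRs in either direction). The largest was at chr9:45900050-45902143 (2094 bp), with 27.8, 24.3, 22.3 and 23.7 CPM in saline and 11.01, 16.9, 19.6 and 12.1 in METH. Replicates 1 and 4 of METH were the lowest. The log2 fold change was -0.72 ± 0.21 (SE; edgeR adjusted p = 0.493). At chr5:157164067-157166134 (2068 bp) saline had 30.8, 31.8, 28.6 and 32.2 and METH 14.0, 24.3, 26.2 and 16.2 CPM, a log2 fold change of -0.61 ± 0.25 (edgeR adjusted p = 0.493).

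In NAc 5 wide OCRs did not overlap, 4 higher and 1 lower (1.18%, with 2.95% of all OCRs). The OCR at chr16:72604536-72606737, lowest in NAc saline among the regions, had 6.3, 4.3, 4.6 and 6.1 CPM after METH against 3.7, 3.4, 3.1 and 2.9 in saline, a log2 fold change of 0.72 ± 0.31 (edgeR adjusted p = 1). NAc METH stayed below the hippocampal saline libraries. The OCR at chr1:38023359-38025477 (2119 bp) had 11.8, 9.2, 12.5 and 12.7 CPM in saline and 15.7, 13.3, 14.7 and 20.2 after METH. The only lower one, chr7:64757504-64759536 (2033 bp), had 7.7, 8.5, 10.5 and 11.2 in saline and 6.6, 6.6, 7.6 and 7.5 after METH.

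In CA 8 wide OCRs did not overlap, 6 higher and 2 lower (1.89%, with 0.846% of all OCRs). At chr15:84748040-84750594 (2555 bp) saline had 34.5, 31.7, 31.6 and 35.4 CPM and METH 46.3, 44.8, 38.6 and 39.0, a log2 fold change of 0.34 ± 0.19. At chr1:252807483-252809535 (2053 bp) saline had 17.9, 15.7, 15.9 and 15.7 and METH 22.7, 20.0, 19.0 and 20.2. The lower ones were chr12:13820125-13822883 (2759 bp), with 13.02, 16.1, 17.1 and 14.1 in saline and 12.0, 6.1, 11.9 and 10.6 in METH, and chr19:43897631-43899667 (2037 bp), with 26.4 to 28.3 in saline and 17.1 to 24.8 in METH. The first of these was the single CA member with an unadjusted p under 0.05 (log2 fold change -0.57 ± 0.20, edgeR adjusted p = 1).

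In SVZ 160 wide OCRs did not overlap, 28 higher and 132 lower (37.7%, with 20.2% of all OCRs). The largest fall was at chr10:86709870-86712214 (2345 bp), with 74.3, 72.1 and 65.8 CPM in saline and 21.9 and 43.9 in METH. The saline libraries lay close together and the METH libraries apart. The log2 fold change was -1.11 ± 0.30 (SE; edgeR adjusted p = 1). At chr10:90262482-90264581 (2100 bp) saline had 70.8, 70.7 and 67.0 and METH 21.4 and 44.9, a log2 fold change of -1.07 ± 0.33 (edgeR adjusted p = 1). In both, METH replicate 1 was the lowest of the 5 SVZ libraries.

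The same order ran through the lower group. METH replicate 1 was the lowest of the 5 SVZ libraries in 42 of the 48 OCRs, and METH replicate 2 was below every saline library in 43. These 48 OCRs were chosen by the SVZ libraries themselves, so METH lying below saline follows largely from the choice. METH replicate 1 was also the library with the smallest share of counts in wide OCRs, and METH replicate 2 carries an extra tag in its peak names, which nothing read for this work explains. The part of that tag in the result was not tested.

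The 13 OCRs with higher CPM in SVZ after METH had like patterns across libraries. Of these, 5 lay in the dense run on chromosome 1 and the rest on chromosomes 5, 6, 9, 12, 14, 16 and 17. The largest difference was at chr6:30405155-30407320 (2166 bp), where saline had 27.4, 16.1 and 13.9 CPM and METH 39.6 and 38.2 (log2 fold change 1.02 ± 0.37, SE; edgeR adjusted p = 1). At chr1:56035575-56038238 (2664 bp) saline had 99.3, 68.6 and 43.6 and METH 137 and 141 (0.98 ± 0.36, edgeR adjusted p = 1). The widest OCR of the table, chr9:8772975-8776770, belonged to this group with 53.2, 34.2 and 32.0 CPM in saline and 61.7 and 65.3 in METH. In all 13 the saline libraries had 1 order, with replicate 1 above 2 above 3, and in 11 both METH libraries were above each of the other 27 libraries of the study. These OCRs were chosen by the SVZ libraries. Over the 24 libraries outside SVZ, the log2 CPM of pairs of them had a median r of 0.57, and pairs of all wide OCRs 0.20, as a description only, with libraries, rats and depth shared. Saline replicate 1 came from batch 1 and the other 4 SVZ libraries from batch 2, so the order within saline went partly with batch.

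**Figure D5:**
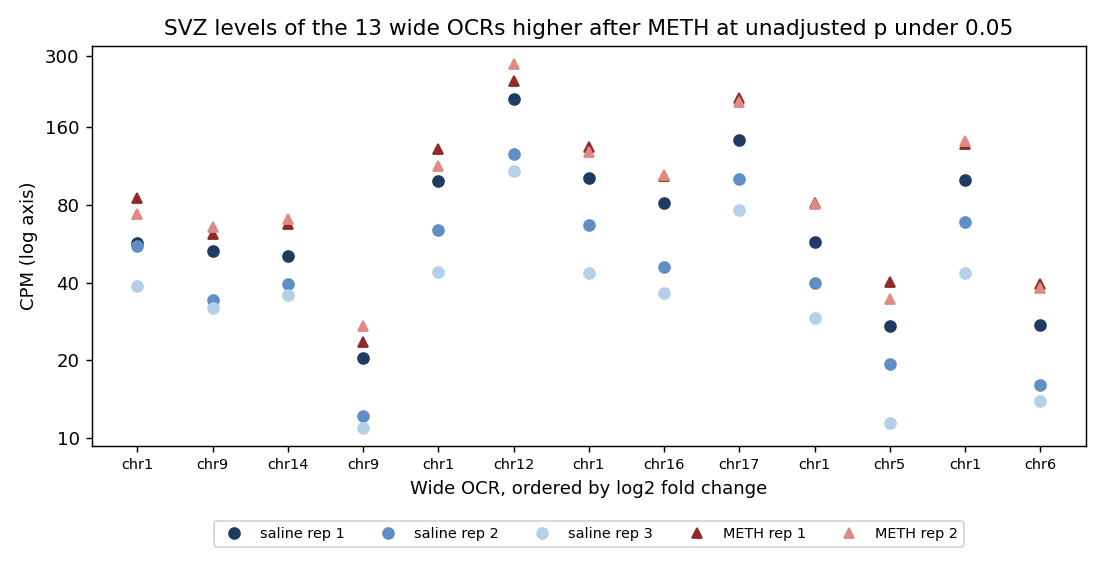
CPM (log axis) of the 13 wide OCRs with higher accessibility in SVZ after METH at an unadjusted p under 0.05, one column per OCR with its chromosome. Circles are saline libraries from dark (replicate 1) to light (replicate 3), triangles METH libraries. Saline replicates keep 1 order in all 13 columns, below both METH libraries.

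The 7 OCRs with gene names showed the same limits. In the same contrasts they had no adjusted p under 0.05 in any region. In CA, PHLDB1's OCR had 159.5, 186.9, 49.8 and 40.2 CPM in saline alone, the first pair from batch 1 and the second from batch 2.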

How the data were processed

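ATAC-seq libraries of 29 samples were compared. The deposited whole-number counts per OCR were made by the authors, who called peaks in each library with the AIAP pipeline at default parameters on rn6 and merged them with bedtools. The pipeline version and the read counter were not given. Peak files as deposited held a score, a fold enrichment over background and −log10 p and q values.

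OCRs with end minus start of 2000 bp or more were kept, and starts are printed from 1. Counts were normalized by the upper quartile and tested with edgeR 4.0.16 (quasi-likelihood, trended dispersion, robust) on all 98237 OCRs, with Benjamini-Hochberg adjustment. METH was tested in 1 model of 8 groups and regions in the 15 saline libraries. DESeq2 1.42.0 was an alternative, as was RUVr with 5 factors, since the study names RUVr without a number of factors. Values per library were tested by exact two-sided permutation. SE was the absolute log2 fold change over the square root of F. A peak counted as inside an OCR with 1 bp of overlap. The tests were tried on simulated counts.

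OCRs were named by rule: the 8 widest, the 3 highest and 3 lowest per kb, those at the width limit, and per region up to 2 non-overlapping OCRs with the largest METH difference in each direction. OCRs called between regions and those with gene names were added after their values were seen. The members and lists were chosen with earlier results of these data known. Saline libraries of 1 animal pair across regions by the peak names: r of their deviations was -0.34 to 0.73, over 0.1 in 10 of 15 pairs. METH and saline rats were different animals. Permutation tests between regions treated libraries of 1 rat as separate, with a test within rats as an added alternative. No sequence is printed, and no count of 0 needed a floor.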

Additional observations from a re-analysis of the deposited data

Results flagged for a closer look

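Of 270 groups of 4 or 5 libraries, 15 (5.56%) held a library far from the others by Dixon's criterion, and chance gives about 1 in 20. The percentage of wide OCRs with a peak was 96.7 in CA saline replicate 2, and the nearest CA saline library had 99.1.

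The others were CPM values at single wide OCRs. NAc METH replicate 3 stood high at 3 of them, with 43.3 at chr12:50458731-50461749 (nearest 14.7), 39.97 at chr19:43897631-43899667 (nearest 27.6) and 11.6 at chr4:108237013-108239049 (nearest 5.29). DG METH replicate 3 had 20.2 at the last of these (nearest 5.51). CA METH replicate 2 had 28.6 at chr17:55423973-55426284 (nearest 17.4) and 38.7 at the OCR with LRP4, chr3:80361939-80364080 (nearest 23.2). DG saline replicate 2 had 14.2 at chr3:152700851-152702850 (nearest 21.1) and 81.5 at the OCR with FOXP1, chr4:131957391-131960175 (nearest 53.9). Single values also stood apart in CA saline replicate 2, with 310.2 at chr14:46654946-46657579 (nearest 266), replicate 1, with 17.9 at chr1:252807483-252809535 (nearest 15.9), and replicate 4, with 10.7 at chr1:15300008-15302291 (nearest 12.3). DG METH replicate 4 had 17.4 at chr1:38023359-38025477 (nearest 13.3), DG saline replicate 3 had 14.5 at chr13:75092179-75094179 (nearest 8.57), and NAc METH replicate 4 had 53.6 at the OCR with PHLDB1, chr8:49043402-49045674 (nearest 86.2).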

How the results depend on the processing

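Of 265 recomputed values that left out no library, 202 kept their direction and their side of the threshold or stayed within the allowed range, as did 293 of 338 that left out 1 library. The 202 include alternatives that could not change a value. The filter on low counts had removed no OCR, so leaving it out gave the main values. Requiring 50% of a peak to overlap the OCR also gave the main values in every library. The cause of the changes was not tested. The METH difference in share changed sign in DG with a minimum width of 1500 bp (0.00785 points), 3000 bp (0.04999) and in batch 1 (0.0273), and in CA without the highest OCR (-0.00366) and in batch 2 (-0.0288). Between regions in saline, a 3000 bp minimum gave 0.0113 for NAc minus DG, -0.0263 for NAc minus CA and -0.0376 for DG minus CA. METH libraries in place of saline gave 0.0844 for NAc minus DG and, against SVZ, 0.128 (NAc), 0.0437 (DG) and 0.0395 (CA).

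RUVr with 5 factors called 25 wide OCRs in DG, 11 in SVZ and none in NAc or CA at the threshold for accessible regions. Counts at an unadjusted p under 0.05 moved most. A width minimum of 1500 bp keeps 2694 OCRs and one of 3000 bp keeps 9, so counts there follow the size of the set: the share was 0.708% at 2000 bp and 0.891% at 1500 bp in NAc, 8.25 and 7.20% in DG, 0.236 and 0.483% in CA, and 14.4 and 14.3% in SVZ. NAc (3) gave 24 at 1500 bp, 0 at 3000 bp, 1 with mean CPM of 10 or more, 5 with the replicate block, 5 with batch in the model and 48 with RUVr. DG (35) gave 194, 1, 60, 70, 72 and 211 in that order and 57 on total counts. CA (1) gave 13, 0, 3, 6, 6 and 117, with 2 by TMM, 5 by DESeq2 and 4 on total counts. SVZ (61) gave 384 and 1 at the 2 widths, 156 with the replicate block and 212 with RUVr. Counts over all OCRs rose too, in each region, with the replicate block, batch or RUVr. With RUVr, NAc had 40 wide OCRs higher and 8 lower, with 4691 and 10171 of all 98237 OCRs. DG had 87 and 124, with 14533 and 24269 of all OCRs. CA had 78 and 39, with 8505 and 3780, and SVZ 34 and 178, with 8152 and 7857. Replicate numbers do not pair METH with saline rats (deviations correlated over 0.1 in 7 of 14 pairs).

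Median log2 fold changes moved in DG (0.17 at 3000 bp, 0.10 with DESeq2, -0.28 with mean CPM of 10 or more), CA (-0.14, -0.061 and 0.076) and SVZ (-0.028 with mean CPM of 10 or more). Region-specific higher OCRs at 1500 bp numbered 10 of 2694 in NAc and 2 in DG, with 4.66% and 0.155% of all OCRs. DESeq2 gave 2 in CA (0.472%, with 1.35% of all OCRs). With METH libraries 1 of 424 was higher in CA and 18 in SVZ, with 1173 and 1035 of all 98237 OCRs. SVZ had only 2 METH libraries. Any difference among regions (7, or 1.65%) gave 41 at 1500 bp (1.52% of 2694) and 0 of 9 at 3000 bp. DESeq2 gave 13 (3.07%, with 14.7% of all OCRs). A mean CPM of 10 or more gave 1 of 420, with 7 of the 20763 OCRs kept. The replicate block gave 11, with 8776 of all OCRs, and the animal block 11, with 9046. METH libraries gave 24, with 6824 of all OCRs. NAc and SVZ against DG and CA (5) gave 58 (2.15% of 2694, against 1.18%), 0, 3 with the replicate block and 3 in METH libraries. Over all OCRs the replicate block gave 9598 higher and 3896 lower, and METH libraries 7238 and 2210.

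Leaving out 1 library, counts at an unadjusted p under 0.05 ranged from 1 to 5 (NAc), 4 to 144 (DG), 1 to 20 (CA) and 13 to 84 (SVZ). OCRs higher in CA ranged from 0 to 1, any difference from 3 to 9, and the NAc and SVZ contrast from 3 to 6. The percentage with a peak ranged from -0.275 to 1.22 (NAc) and -0.177 to 0.884 (CA), the widest peak from -38.0 to 4.71 bp (NAc), -76.6 to 13.9 (DG) and -36.5 to 106 (CA), and peaks per OCR from -0.0159 to 0.0493 (NAc) and -0.0330 to 0.0755 (SVZ).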
